A study of Mus musculus with 21 samples.

Results

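The lungs of moribund C57BL/6 mice after bleomycin were compared with the lungs of control C57BL/6 mice, on the 4 arrays whose titles name these groups, out of the 21 arrays of the series. The moribund group was 1 pool of males that had received 100 mg/kg and 1 pool of females that had received 125 mg/kg bleomycin from an osmotic minipump, and the control group was 1 pool of males and 1 of females. Per the labels each array carried total RNA of the whole right lung, pooled over 3 to 5 mice. The time at which the moribund mice were sampled, the age of the mice and what the control mice received are not stated in the sources used here. Each group therefore has n = 2 pools, and sex and dose cannot be told apart within the moribund group. The rest of the series, with C57BL/6 lungs at 3 and 6 weeks and the strains A/J and C3H/HeJ, served to estimate the spread between arrays, and the 2 C57BL/6 arrays at 3 weeks served for a direct comparison.

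Bleomycin is an antitumour drug that breaks DNA strands, and lung injury followed by fibrosis is its best known toxic effect. The injured alveolus loses epithelial and endothelial cells, neutrophils and monocytes enter from the blood, the monocytes becoming macrophages, and fibroblasts lay down collagen, elastin and fibronectin. C57BL/6 is an inbred mouse strain widely used for this model because its lungs scar readily. In whole-lung RNA of this kind, fewer cells of a type and less RNA per cell cannot be told apart.

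Values below are signals in array units after quantile normalization, which gives all arrays the same distribution, with the male pool before the female pool. Changes are moribund minus control on the scale log2(signal + 16), with the standard error (SE) of the limma fit, and a gene was called when its Benjamini-Hochberg adjusted p over all genes tested lay under 0.05. Of the 9079 genes tested, 1386 (15.3%) were called, 632 (6.96%) higher and 754 (8.3%) lower in moribund lungs. Without adjustment 2599 genes had a p under 0.05. The median SE of a change was 0.198 and the median change over all genes was 0.000439. Changes of more than 2-fold were called for 229 genes that rose and 208 that fell, and changes of more than 4-fold for 41 that rose and 8 that fell. The 2 moribund arrays lay on 1 side of both control arrays for 1383 of the 1386 called genes, and for 5024 (55.3%) of all genes.

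The 4 arrays carried the RNA of lung: Sftpc, the surfactant protein of type 2 alveolar cells, had signals of 6935 and 6085 in moribund and 6738 and 7395 in control lungs, and Scgb1a1, the secretoglobin of club cells, 7196 and 7080.3 in moribund and 7760.4 and 7760.4 in control lungs. Both have nearly the highest signals of the array, so that a change could be compressed. Array medians as deposited were 104 and 78.6 for the moribund arrays and 109 and 111.2 for the control arrays, so the female moribund array was the dimmest of the 4. Log2 signals correlated across genes at 0.952 between the moribund arrays, at 0.973 between the control arrays and at 0.895 to 0.930 between a moribund and a control array. For RNA integrity, the array carries Gapdh control probe sets at both ends of the transcript, and the quotient of the 3′ over the 5′ one was 0.770 and 0.885 on moribund arrays and 0.853 and 0.928 on control arrays. Xist, which females express, had 160.4 and 609 in moribund and 131 and 1725 in control lungs, and Uty, which is on the Y chromosome, had 97.8 and 29.0 in moribund and 83.9 and 14.7 in control lungs. The female moribund array thus had less Xist and more Uty than the female control array, though more Xist than either male array. On the other C57BL/6 female arrays Xist was 903 at 3 weeks, also below the control, and 1621 at 6 weeks. Without the female moribund array 712 genes were called, and the values that change without it are given beside the genes concerned.

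Scaling matters for the balance of rises and falls. With the deposited scaling left as it was, 701 genes were called, of which 19.8% rose, against 45.6% of the 1386 calls after quantile normalization, and the median change of all genes was −0.281. Of the 701, 643 were among the 1386. Changes are given here relative to the median gene, as quantile normalization sets it. Of the 214 called genes named in this text or by the naming rule, 127 kept their call in every setting that tested them. The settings were alternative processing and leaving out each of the 4 arrays in turn. A further 24 lost their call only with the deposited scaling, and none changed direction. A stricter filter on dim probe sets tested 192 of the 214. A gene given below with its change belongs to the 127 unless the text says that it was not called or that its call was lost. Fits to the C57BL/6 arrays alone or to these 4 arrays alone, which leave few degrees of freedom, lost 43 and 42 of the 214 calls. Of all 1386 calls they kept 518 and 533. Most of the 1386 calls thus depend on the spread estimated with the other strains included. Macrophage rises, 30 in the main fit, were 27 in both fits. Endothelial falls, 25 in the main fit, were 14 and 15, and type 2 falls, 14 in the main fit, were 4 in both. These fits are named beside a gene only where no other setting ended its call. Of the other settings, not every lost call is named. Some genes stand in more than 1 of the 45 lists used below. The counts of each list are to be read against the 15.3% of all genes called, 6.96% higher and 8.3% lower.

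**Figure D1:**
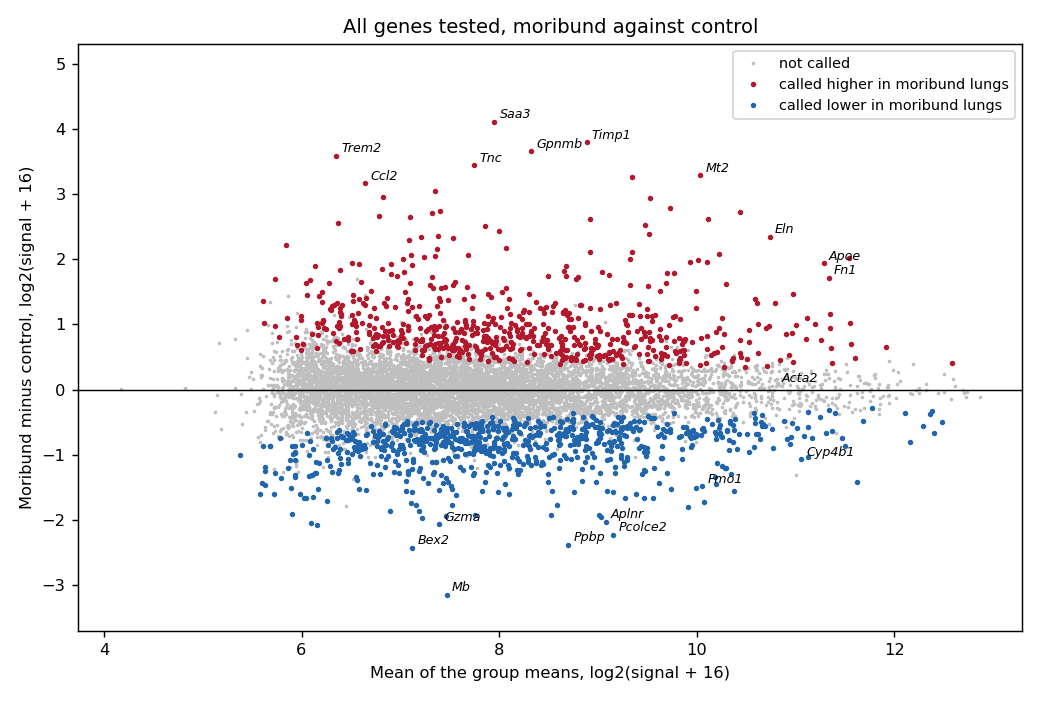
Change of each of the 9079 genes tested (vertical axis, moribund minus control, log2 of signal plus 16) against its level (horizontal axis, mean of the 2 group means on the same scale). Red points are the 632 genes called higher and blue points the 754 called lower in moribund lungs; the largest rises, led by Saa3, exceed the largest falls, led by Mb, in size.

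The largest rise was that of Saa3, a serum amyloid A made in inflamed tissue. Saa3 had signals of 705 and 1447 in moribund lungs, against 32.6 and 57.3 in control lungs, a change of 4.10 (SE 0.32, limma adjusted p = 3.23e-07). Timp1, the secreted inhibitor of matrix metalloproteinases, had 1344 and 2262 in moribund and 123 and 100.1 in control lungs, a change of 3.79 (SE 0.26, adjusted p = 7.01e-08). Gpnmb, a glycoprotein of lipid-laden macrophages, had 1252 and 1008 in moribund and 70.8 and 78.2 in control lungs, a change of 3.65 (SE 0.19, adjusted p = 3.54e-09). In all 3 genes both moribund pools lay far above both control pools, and the pools of a group differed little by comparison. Trem2, the lipid-sensing receptor of macrophages, had 228 and 308 in moribund lungs, against only 8.18 and 6.82 in control lungs, near the bottom of the scale, so its change of 3.58 understates the ratio. Tnc, the matrix glycoprotein tenascin C of healing wounds, had 395 and 1205 in moribund and 42.7 and 56.9 in control lungs (change 3.44). The secreted protease inhibitor Serpina3n followed with 1415 and 2811 in moribund and 214 and 175 in control lungs (change 3.26).

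Of the 12 largest falls, 3 were of genes of heart muscle (Mb, Ttn and Myl7) and others of genes of capillaries, platelets and matrix. Mb, the oxygen store myoglobin, had 62.2 and 29.3 in moribund lungs, against 480.0 and 544 in control lungs, a change of −3.15 (SE 0.46, adjusted p = 1.87e-04). Bex2, an X-linked adaptor protein, had 39.1 and 49.3 in moribund and 316 and 296 in control lungs (change −2.42, adjusted p = 2.16e-06). Pcolce2, an enhancer of the protease that trims fibrillar procollagens, had 311 and 195 in moribund and 1245 and 1193 in control lungs (change −2.23, adjusted p = 3.59e-07). The pools of a group lay close together for Pcolce2 and wide apart for Lrat, the enzyme that esterifies retinol for storage, which had 25.6 and 11.1 in moribund and 70.1 and 207 in control lungs (change −2.05). Abi3bp, a protein of the matrix, had 74.4 and 73.4 in moribund and 329 and 331 in control lungs (change −1.95). Zdhhc1 (change −2.08) and AU021092 (change −1.95) were also among the 12.

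**Figure D2:**
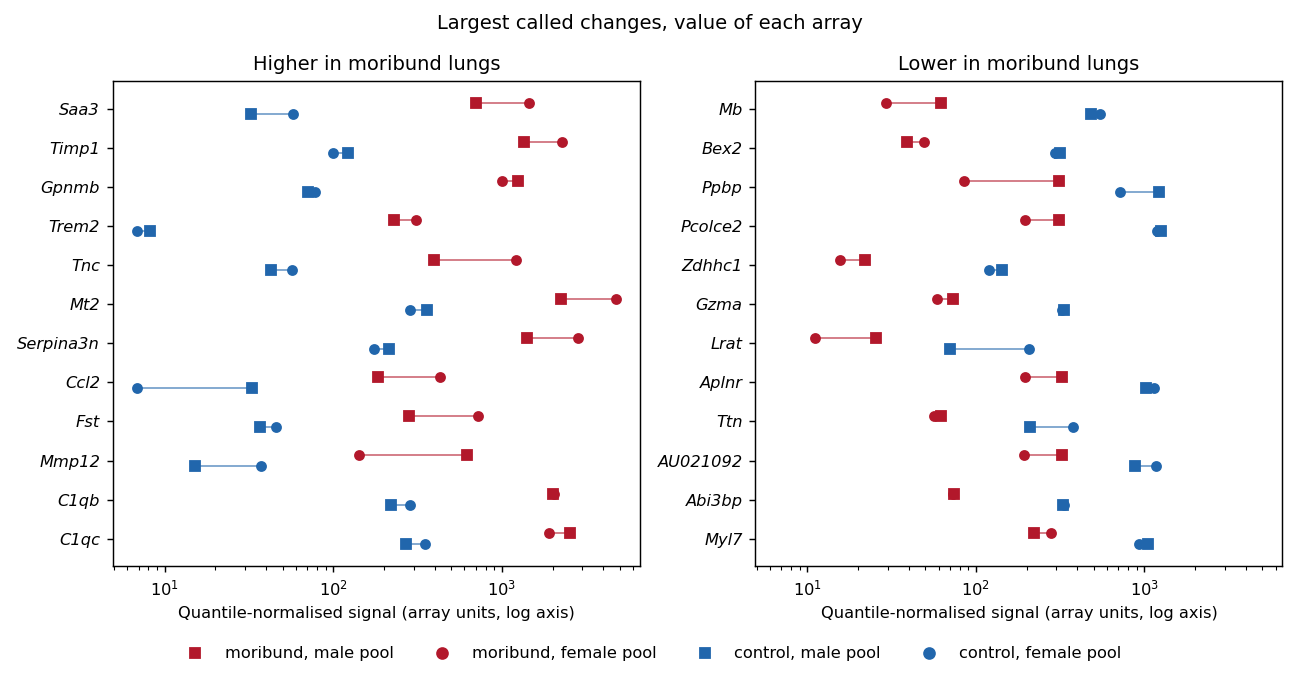
Signal of each array (horizontal axis, array units, log axis) for the 12 genes with the largest rise (left) and the 12 with the largest fall (right) among those called. Red marks are moribund and blue marks control pools, squares male and circles female. No moribund mark overlaps the control marks of its gene, which held for 1383 of all 1386 called genes and for 55.3% of all genes tested. Ccl2, Mmp12 and Ppbp show the widest gaps between pools of 1 group.

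More matrix genes rose than fell. Of 48 tested genes of collagens and extracellular matrix, 22 rose and 5 fell, with a median change of 0.523, and with the deposited scaling 10 rose and 4 fell. The count of those that fell was 1 or 2 without either control array or the female moribund array. Lox, the oxidase that cross-links collagen and elastin, had 1386 and 1988 in moribund lungs, against 248 and 369.6 in control lungs (change 2.39, adjusted p = 1.40e-06). Eln, elastin itself, had 3252 and 4524 in moribund and 485 and 1130.5 in control lungs (change 2.35, adjusted p = 3.85e-05). Fn1, fibronectin, had 4014 and 5449 in moribund and 1361 and 1463 in control lungs (change 1.72, adjusted p = 6.04e-06). In all 3 genes the female moribund pool was the highest of the 4. Among collagen chains, Col1a1 had 2141 and 2239.5 in moribund and 670.4 and 743 in control lungs (change 1.61), Col5a2, of the fibril-nucleating type V collagen, 1678 and 2181.8 in moribund and 414 and 563 in control lungs (change 1.95). Col1a2 changed by 0.94 and the basement membrane chain Col4a1 by 0.64, both lost with the deposited scaling. Col3a1 was not called, with 3358 and 3331 in moribund and 2153 and 2996 in control lungs (change 0.39, adjusted p = 0.156), though its second, dimmer probe set showed a change of 1.64 and the mean of both was called (1.02). Tgfbi, a matrix protein named for its induction by TGF-beta, changed by 1.78, the microfibril-binding fibulin Fbln2 by 1.55, and the thrombospondin Thbs1 by 1.79. In the other direction, Ogn, a small leucine-rich proteoglycan of connective tissue, had 684 and 487 in moribund and 1917 and 1977 in control lungs (change −1.73, adjusted p = 4.33e-06).

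Of 14 tested enzymes and helpers that fold and trim collagen, 5 rose and Pcolce2 alone fell, with 2 or 3 risen without either control array or the female moribund array, and none with the deposited scaling. Colgalt1, which adds galactose to collagen, had 650.1 and 654 in moribund and 340.4 and 342 in control lungs (change 0.90, lost with the deposited scaling).

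Of 30 tested matrix proteases and inhibitors 19 rose and none fell, with a median change of 0.993, and 11 rose with the deposited scaling. Mmp12, the elastase of macrophages, had 619 and 141 in moribund lungs, against 15.2 and 37.1 in control lungs (change 2.96, SE 0.48, adjusted p = 4.27e-04). Its rise was 4.35 between the male pools and 1.57 between the female pools. Mmp14, the membrane-bound activator of Mmp2, had 574 and 936 in moribund and 182 and 237 in control lungs (change 1.74), and Mmp2, a gelatinase of fibroblasts, 924 and 1364 in moribund and 454 and 552 in control lungs (change 1.14, lost with the deposited scaling). The membrane protease Adam8 of myeloid cells changed by 1.47. The cathepsins, proteases of the lysosome, rose together: Ctss by 1.46, Ctsk, which cleaves collagen, by 1.39, Ctsd by 1.16, Ctsb by 1.01 and Ctsl by 0.97, the last lost with the deposited scaling.

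The TGF-beta, BMP and activin pathway split. Of 39 tested members 5 rose and 6 fell, with 3 risen and 7 fallen with the deposited scaling, and the median change was −0.0236. Several that rose are secreted proteins that bind ligands. Fst, which traps activin, had 282 and 721 in moribund lungs, against 36.7 and 45.6 in control lungs (change 3.04, adjusted p = 1.08e-05). Grem1, a BMP antagonist, had 102 and 117 in moribund and 32.6 and 37.9 in control lungs (change 1.29), and Ltbp2, a matrix protein of the latent TGF-beta binding family, 749 and 841 in moribund and 227 and 231 in control lungs (change 1.73). Fstl1, a follistatin-like protein, changed by 1.14 and lost its call with the deposited scaling. The fallen members include the ligand Bmp6, with 219.7 and 182 in moribund and 672 and 576 in control lungs (change −1.56, adjusted p = 1.04e-05). Ltbp4, which the lung needs to store latent TGF-beta and to assemble elastic fibres, had 652 and 367 in moribund and 1570.0 and 1312 in control lungs (change −1.52), so the 2 latent TGF-beta binding genes named here moved in opposite directions. Bambi, a pseudoreceptor that blocks TGF-beta signals, changed by −1.27, and Eng, the endothelial coreceptor endoglin, by −0.93. Tgfb1 itself had 589 and 533 in moribund and 429 and 364 in control lungs and was not called (change 0.49, adjusted p = 0.222).

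Genes of smooth muscle and myofibroblasts showed no common direction. Of 19 tested, 3 rose and 3 fell, and without the male control array 1 rose and none fell. The median change was 0.0924, or −0.185 with the deposited scaling. Acta2, the actin of smooth muscle and myofibroblasts, had 1364 and 2400.0 in moribund and 1582 and 1915 in control lungs, with overlapping groups (change 0.06, adjusted p = 0.874; −0.185 with the deposited scaling and −0.291 without the female moribund array). S100a4, a calcium-binding protein of fibroblasts and leukocytes, had 783 and 1274 in moribund and 283 and 285 in control lungs (change 1.76, adjusted p = 2.69e-05). Myh11, the myosin of mature smooth muscle, had 69.8 and 149 in moribund and 262 and 213 in control lungs (change −1.09), and it was not called without the male moribund array (−0.61) or the male control array (−0.89).

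Macrophage genes rose most widely of the 45 lists. Of 39 tested, 30 rose and 1 fell, the median change was 1.33, and 25 to 30 rose with any 1 of the 4 arrays left out. Their summed signal was 51541 and 48284 on moribund arrays and 28912 and 29913 on control arrays, and no member was at 0 on any array. Cd68, a lysosomal protein of macrophages, had 1129 and 832 in moribund lungs, against 294 and 241 in control lungs (change 1.80, adjusted p = 1.67e-06). Fcgr3, an Fc receptor, had 501 and 666 in moribund and 88.3 and 99.7 in control lungs (change 2.43), and Ms4a6d, a tetraspan protein of monocytes and macrophages, 336 and 524 in moribund and 46.3 and 53.03 in control lungs (change 2.73). The scavenger receptors did not move alike. Msr1 had 119.7 and 281 in moribund and 14.1 and 22.99 in control lungs (change 2.55), the mannose receptor Mrc1 1108 and 1399 in moribund and 434 and 375 in control lungs (change 1.59), whereas Cd36, also a fatty acid receptor of capillaries, had 1488 and 1432 in moribund and 2670.2 and 2537 in control lungs (change −0.83). Retnla, a secreted protein of the alternative activation programme, had 5746 and 6222 in moribund and 948 and 2244 in control lungs (change 2.02). Adgre1, the F4/80 antigen, changed by 1.33. Ptprc, the leukocyte antigen CD45, had 1116 and 514 in moribund and 983 and 839 in control lungs and was not called (change −0.25, adjusted p = 0.535); without the female moribund array its change was 0.34, and without the male one it was called at −0.85.

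Lysosomal genes and genes of lipid handling went the same way, with 23 of 40 tested risen, none fallen and a median change of 0.67, and 7 risen with the deposited scaling. Apoe, the lipid carrier that macrophages secrete, had 4705 and 5048 in moribund lungs, against 1208 and 1317 in control lungs (change 1.94, adjusted p = 7.70e-06). Pld3, a lysosomal exonuclease, had 1022 and 805 in moribund and 366 and 337 in control lungs (change 1.33). Scarb1, the receptor for high density lipoprotein, changed by 1.14. The lipid exporter Abca1 changed by 0.81 and the lysosomal glucuronidase Gusb by 1.09, and both lost their call with the deposited scaling.

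Neutrophil genes rose too, 9 of 14 tested and none lower, with a median change of 0.894, and 5 rose without the female moribund array. Lcn2, the iron-scavenging lipocalin of neutrophils and injured epithelium, had 2181.8 and 2726 in moribund lungs, against 534 and 598 in control lungs (change 2.08, adjusted p = 4.73e-08). S100a8, a subunit of calprotectin, had 1466 and 1985 in moribund and 489.7 and 705 in control lungs (change 1.51). Its partner S100a9 had 824 and 1329 in moribund and 389 and 572 in control lungs (change 1.12). The call of S100a9 was lost in 10 of 19 settings, the deposited scaling among them. Leaving out the male control (0.83), the female moribund (0.75) or the female control array (1.42) also ended it. The granule proteins Ltf, lactoferrin, and Mmp8, a collagenase, changed by 1.52 and 1.38. Ltf also stands in the list of airway secretory cells.

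Most of the lymphocyte genes that were called fell. Of 17 tested genes of B and plasma cells 5 fell and 1 rose (35.3% called, against 15.3% of all genes, median change −0.534), and of 20 genes of T and NK cells 1 fell and none rose (5% called, median change −0.302). Without the female moribund array 1 of the B cell genes fell and the median of the T and NK cell genes was 0.164, and without the male moribund array 6 T and NK cell genes fell. Cd79a, a signalling chain of the B cell receptor, had 105 and 88.3 in moribund lungs, against 244 and 209 in control lungs (change −1.10, adjusted p = 0.00208). Its partner Cd79b changed by −1.55 and the B cell antigen Ms4a1 by −1.36, and neither was called without the female moribund array (−0.95 for Cd79b and −0.74 for Ms4a1), nor was Ms4a1 without either control array (−1.41 and −1.31). Igha, the heavy chain of IgA, had 683 and 379.9 in moribund and 262 and 180.1 in control lungs (change 1.17), a call lost with the deposited scaling and without the male moribund (0.82) or the female control array (1.0). The cytotoxic protease Gzma of NK and T cells had 73.4 and 58.9 in moribund and 333 and 322 in control lungs, a fall of nearly the same size in both sexes (change −2.07, adjusted p = 7.20e-04).

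Chemokine genes rose in 13 of 23 tested cases and fell in none (median change 0.817), and 8 rose with the deposited scaling. Ccl2, the main attractant of monocytes, had 185 and 429.9 in moribund lungs, against 32.9 and 6.82 in control lungs (change 3.16, SE 0.43, adjusted p = 8.84e-05). The female control pool was at the bottom of the scale for Ccl2, and the rise was 2.04 in male and 4.29 in female pools. Ccl9 had 1217 and 1152 in moribund and 163 and 200.03 in control lungs (change 2.61, adjusted p = 3.66e-09), Ccl8 1102 and 889 in moribund and 211 and 224 in control lungs (change 2.11), and Ccl6 2931 and 2119 in moribund and 944 and 933 in control lungs (change 1.39). These 3 chemokines of myeloid cells were close between the pools of each group. Ccr1, a receptor for several of them, had 324 and 480.3 in moribund and 48.9 and 44.3 in control lungs (change 2.72), and Ackr1, the decoy receptor of venules that carries chemokines across the vessel wall, 234 and 427 in moribund and 83.5 and 49.1 in control lungs (change 2.05).

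Of 28 cytokine and receptor genes 12 rose and 2 fell (median change 0.527), and 4 rose with the deposited scaling and 7 without the female control array. Socs3, a feedback inhibitor of cytokine receptors, had 582 and 714 in moribund and 128 and 257 in control lungs (change 1.74). Tnfrsf12a, the receptor of the cytokine TWEAK, had 563 and 1069 in moribund and 148 and 258 in control lungs (change 1.90), and Il1rn, the antagonist of the interleukin 1 receptor, 209 and 184 in moribund and 62.8 and 75.6 in control lungs (change 1.32). The alarmin Il33 had 371 and 152 in moribund and 459 and 552 in control lungs (change −1.03). Its call was lost in 10 of 19 settings. Among them were leaving out the female moribund (−0.24), the male control (−1.06) or the female control array (−0.997).

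Part of the complement and acute phase genes rose. Of 17 complement genes 7 rose and none fell, a count of 6 or 7 with any 1 array left out, and the 3 chains of C1q, which opens the classical pathway and which macrophages make, led them. C1qa had 2841 and 2631 in moribund lungs, against 388 and 483 in control lungs (change 2.61), C1qb 2002 and 2039 in moribund and 219.6 and 286 in control lungs (change 2.93), and C1qc 2533 and 1915 in moribund and 270.3 and 349.8 in control lungs (change 2.78). The anaphylatoxin receptors C3ar1 and C5ar1 changed by 2.51 and 1.60, and Cfb, the serine protease of the alternative pathway, by 1.35. Of 11 acute phase genes 5 rose and 1 fell. Lrg1, a leucine-rich glycoprotein of plasma, had 2224 and 2084 in moribund and 382 and 769.6 in control lungs (change 1.96). Of 18 genes of coagulation and fibrinolysis 8 rose and 1 fell, with 3 risen with the deposited scaling or without the female moribund array and 4 without either control array. F13a1, the subunit of the fibrin-stabilising factor that macrophages make, had 462 and 1186 in moribund and 247 and 161 in control lungs (change 1.81), and Thbd, the endothelial anticoagulant thrombomodulin, 1084 and 563 in moribund and 1833 and 1623 in control lungs (change −1.13). Both calls were lost without the female moribund array (1.04 for F13a1 and −0.60 for Thbd), and that of F13a1 also without the female control array (1.53).

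The promoters of Saa3 and of the chemokine Cxcl10 are shown because both are textbook targets of inflammatory signals and both rose here. The sequences are RefSeq windows of the build GRCm38.p6 from 250 bases before to 50 after the start of the gene, on the minus strand of chr7:46715627-46715926 for Saa3 and of chr5:92348840-92349139 for Cxcl10. Capitals mark matches, on either strand, to a kappaB-like site (GGNNTTTCC, found in 5.82% of all 32851 mouse promoter windows) and to the core of the interferon response element (found in 3.44%).
Saa3: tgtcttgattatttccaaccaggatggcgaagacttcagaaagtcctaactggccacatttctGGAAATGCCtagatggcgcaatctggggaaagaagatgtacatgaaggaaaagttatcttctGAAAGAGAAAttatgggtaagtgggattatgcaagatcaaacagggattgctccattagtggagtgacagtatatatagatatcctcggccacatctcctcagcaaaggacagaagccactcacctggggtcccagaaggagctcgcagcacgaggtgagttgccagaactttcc
Cxcl10: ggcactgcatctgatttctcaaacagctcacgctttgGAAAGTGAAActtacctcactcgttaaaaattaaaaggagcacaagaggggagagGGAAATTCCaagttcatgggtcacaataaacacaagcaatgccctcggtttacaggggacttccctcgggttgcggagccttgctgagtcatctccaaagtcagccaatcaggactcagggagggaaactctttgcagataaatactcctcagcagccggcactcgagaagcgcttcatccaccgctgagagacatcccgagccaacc
Each window held 1 match of each kind, the kappaB-like match beginning 187 bases before the start of Saa3 and 158 before that of Cxcl10. A match describes these letters and is no evidence of binding.

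Interferon-stimulated genes were mixed. Of 35 tested 7 rose and 3 fell, and the median change was 0.189, or −0.0982 with the deposited scaling, under which 1 rose. The median was 0.386 between the male pools and −0.169 between the female pools. It was 0.389 without the female moribund array and −0.00151 without the male moribund array. Without the female control array 4 rose, and without the male moribund array 6 fell. Cxcl10 had 132 and 109.5 in moribund lungs, against 18.5 and 22.6 in control lungs (change 1.90, SE 0.32, adjusted p = 5.46e-04). Irf7, a transcription factor that interferon induces, had 359 and 310.1 in moribund and 119.9 and 172 in control lungs (change 1.13), and Oas1a, a sensor of double-stranded RNA, 560.2 and 407 in moribund and 212 and 248 in control lungs (change 1.01); both calls were lost with the deposited scaling. Isg20, an exonuclease that B cells also express, had 236 and 177 in moribund and 597 and 548 in control lungs (change −1.42, adjusted p = 2.74e-04). Of 25 genes of antigen presentation 3 rose and none fell (12% called, against 15.3% of all genes), with a median change of −0.0552. Without the female moribund array 4 rose and the median was 0.302, without the male moribund array 3 fell and it was −0.199, and 1 rose with the deposited scaling.

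DNA damage leads through p53 to arrest of the cell cycle. Of 36 p53 targets 9 rose and 3 fell, and the median change was 0.166, or −0.0868 with the deposited scaling, under which 4 rose. The 3 falls were 0 or 1 without the female moribund array or either control array. Cdkn1a, the cell cycle inhibitor p21, had 1787 and 1602 in moribund lungs, against 293 and 268 in control lungs (change 2.53, SE 0.20, adjusted p = 3.98e-07). Phlda3, an inhibitor of Akt, had 1075 and 1106 in moribund and 447 and 466 in control lungs (change 1.23), and Psrc1, a microtubule-associated protein, 271 and 255 in moribund and 20.2 and 37.2 in control lungs (change 2.67), with a second probe set at 0.84. Gadd45g, a stress sensor, had 268 and 416 in moribund and 41.9 and 89.9 in control lungs (change 2.16). Ccng1, Ddit4 and the nuclease gene Aen changed by 1.24, 1.22 and 0.90 and lost their calls with the deposited scaling. Of 27 DNA repair genes none rose and 1 was called lower (3.7% called, against 15.3% of all genes). This was Nbn, a part of the break sensor, with 60.7 and 40.5 in moribund and 87.4 and 97.5 in control lungs (change −0.72). Its call was kept without the male moribund array and lost with the deposited scaling. It was also lost without the male control (−0.77), the female moribund (−0.45) or the female control array (−0.67). Blmh, the hydrolase that inactivates bleomycin, had 233 and 302 in moribund and 248 and 306 in control lungs (change −0.05, adjusted p = 0.895).

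Of 48 cell cycle genes 8 rose and none fell (median change 0.396), and 2 rose with the deposited scaling, and 3 to 6 with any 1 array left out. The share of this list called, 16.7%, lay near the 15.3% of all genes called, of which 6.96% were called higher and 8.3% lower. Cks1b, a cofactor of cyclin-dependent kinases, had 303 and 388 in moribund and 156 and 184 in control lungs (change 0.95, lost with the deposited scaling). Birc5, the mitotic protein survivin, had 114 and 72.8 in moribund and 32.2 and 39.5 in control lungs (change 1.06), a call lost with the deposited scaling and without the male moribund (0.71) or the male control array (0.98).

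Metallothioneins, small proteins that bind zinc and rise with metals, glucocorticoids and inflammation, rose in both sexes. Mt2 had 2244 and 4744 in moribund lungs, against 358 and 286 in control lungs (change 3.28, SE 0.30, adjusted p = 1.77e-06), and its neighbour Mt1 2555 and 4931 in moribund and 631 and 434 in control lungs (change 2.72, SE 0.37, adjusted p = 9.65e-05). Both rose more between the female pools (3.98 for Mt2 and 3.46 for Mt1) than between the male pools (2.59 for Mt2 and 1.99 for Mt1). Because they are neighbours that moved together, their RefSeq promoter windows (GRCm38.p6, plus strand, chr8:94172368-94172667 for Mt2 and chr8:94178839-94179138 for Mt1) are shown, with capitals on matches to the core of the metal response element on either strand (TGCACNC or TGCGCNC, of which at least 1 was found in 25.7% of all windows).
Mt2: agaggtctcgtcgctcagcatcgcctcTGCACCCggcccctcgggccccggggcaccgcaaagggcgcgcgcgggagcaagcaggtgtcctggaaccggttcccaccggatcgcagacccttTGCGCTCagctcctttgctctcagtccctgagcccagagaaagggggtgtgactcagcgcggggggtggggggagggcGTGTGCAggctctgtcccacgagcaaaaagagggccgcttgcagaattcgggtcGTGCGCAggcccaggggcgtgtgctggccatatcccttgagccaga
Mt1: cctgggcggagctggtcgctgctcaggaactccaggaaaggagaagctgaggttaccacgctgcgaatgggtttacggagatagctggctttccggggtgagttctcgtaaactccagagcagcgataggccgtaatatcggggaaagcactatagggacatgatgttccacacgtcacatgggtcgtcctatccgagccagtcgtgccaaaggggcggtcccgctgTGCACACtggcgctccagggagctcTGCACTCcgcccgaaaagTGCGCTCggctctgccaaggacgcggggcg
The window of Mt2 held 4 matches and that of Mt1 held 3. The share of all windows with that many matches was not counted. Here too a match is no evidence of binding.

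The wider list of metallothioneins and genes that respond to glucocorticoids had 10 risen of 28 and none fallen, with 6 risen without the female moribund array, and its median change was 0.169, or −0.0801 with the deposited scaling. Fkbp5, a chaperone cofactor that glucocorticoids induce, had 666 and 899 in moribund lungs, against 244 and 212 in control lungs (change 1.70, adjusted p = 1.42e-04). Slc39a14, a zinc importer, had 147 and 510.0 in moribund and 110.9 and 61.0 in control lungs (change 1.56); the male pools differed by 0.36 and the female pools by 2.77, and the call was lost without the female moribund (0.70) or the female control array (1.09).

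Of 33 genes of hypoxia and glycolysis 8 rose and 3 fell, and the median change was 0.0529, or −0.238 with the deposited scaling, under which none rose. Without the male control array 4 rose, without the female control array 5, and without the female moribund array 2. Pgam1 and Pkm, 2 enzymes of late glycolysis, changed by 1.08 and 0.82, both lost with the deposited scaling. Ldha, which makes lactate, had 1332 and 1866 in moribund and 783 and 918 in control lungs (change 0.88), a call lost with the deposited scaling and without the female moribund array (0.62). Hif1a, the oxygen-regulated transcription factor, changed by 0.80, with its 3 probe sets between −0.04 and 0.96, and its call was lost with the deposited scaling and without the female moribund array (0.65).

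Antioxidant genes were split. Of 44 tested 5 rose and 10 fell, with 8 risen without the male moribund array and 2 or 3 without any other of the 4, and with 6 fallen without the female control array. Hmox1, the haem oxygenase of macrophages, had 230.1 and 433 in moribund lungs, against 91.9 and 88.8 in control lungs (change 1.64), and the aldo-keto reductase Akr1b8 633 and 848 in moribund and 309 and 288 in control lungs (change 1.25). The glutathione transferases named here fell. Gstm1 had 833 and 783 in moribund and 2093 and 1696 in control lungs (change −1.21), Gstt1 374 and 256 in moribund and 759 and 701 in control lungs (change −1.19), and Gsta3 170.1 and 172 in moribund and 574 and 340.0 in control lungs (change −1.29), though probes for genes this alike can share signal. Cat, catalase, had 569.9 and 409.6 in moribund and 1307 and 983 in control lungs (change −1.20). Of 26 cytochrome P450 and oxidase genes 13 fell and 2 rose (median change −0.681). Aox3, an aldehyde oxidase, had 228 and 132 in moribund and 741 and 666 in control lungs (change −1.92, adjusted p = 1.09e-05), its relative Aox1 changed by −1.04, and Cyp1a1, the P450 enzyme that the aryl hydrocarbon receptor induces, had 46.1 and 78.3 in moribund and 218 and 315 in control lungs (change −1.86). Cyp7b1, an oxysterol hydroxylase, rose with 98.6 and 172 in moribund and 43.1 and 39.5 in control lungs (change 1.36, lost with the deposited scaling).

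Genes of type 2 alveolar cells, which make surfactant and renew the alveolar lining, fell in part. Of 32 tested 14 fell and 1 rose (median change −0.37), with 7 fallen without the female control array and 8 without the female moribund array. Fgfr2, a growth factor receptor of this epithelium, had 578 and 437 in moribund lungs, against 1033 and 949 in control lungs (change −0.96, adjusted p = 4.43e-04). Sftpa1, a surfactant collectin, had 4453 and 3826 in moribund and 5863 and 6306 in control lungs (change −0.56), with a second probe set at −1.73. Hc, complement C5, which type 2 cells make in mice, had 877 and 285 in moribund and 1630.4 and 1948 in control lungs (change −1.80), a call lost when only the C57BL/6 arrays or only the 4 arrays were fitted. The lipid transporter Abca3 changed by −0.96 and the phosphate transporter Slc34a2 by −0.87; both calls were lost without the female moribund array (−0.56 for Abca3 and −0.42 for Slc34a2), and that of Abca3 also without the female control array (−0.75). Sftpc was not called (change −0.12, adjusted p = 0.351). The member that rose was Ctsh, a cathepsin that processes surfactant proteins, with 3003 and 3479.7 in moribund and 1459 and 1544 in control lungs (change 1.10).

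Of 21 genes of type 1 alveolar cells, the flat cells of gas exchange, 5 fell and 2 rose, with 2 or 3 fallen without either control array or the female moribund array. Cav1, the caveolin that capillaries share with these cells, had 2390.1 and 1989.8 in moribund and 3749 and 3604 in control lungs (change −0.75), and Limch1 1762 and 1771 in moribund and 2828 and 3092 in control lungs (change −0.74). Ager, their defining receptor, was not called (change −0.25, adjusted p = 0.145), except without the male moribund array (−0.40). Genes of injured and stressed epithelium rose in 11 of 19 cases and fell in 1 (median change 0.626), with 5 risen with the deposited scaling, 6 without the female control array and 7 without the male control or the female moribund array. S100a14, a calcium-binding protein of epithelia, had 196 and 415 in moribund lungs, against 25.3 and 75.5 in control lungs (change 2.30), and Lgals3, the lectin galectin 3 of epithelium and macrophages, 2657 and 2953 in moribund and 1099.7 and 1102 in control lungs (change 1.33). The tight junction gene Cldn4 had 426 and 262 in moribund and 134 and 96.1 in control lungs (change 1.43), a call lost without the male moribund (1.20) or the female control array (1.34). The keratin pair Krt8 and Krt18 changed by 0.63 and 0.79, and both calls were lost with the deposited scaling. The call of Krt8 was lost in 8 of 19 settings, among them without the male control (0.48) or the female moribund array (0.49). That of Krt18 was also lost without the female control array (0.62). The member that fell was Tm4sf1, a tetraspan protein that endothelium also expresses (change −0.76).

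In the airway, 8 of 26 genes of secretory cells fell and 4 rose, and 6 of 14 genes of ciliated cells fell and none rose. Several enzymes of the airway list fell. Cyp4b1, a P450 of the lung, had 1489 and 1412 in moribund lungs, against 2978 and 3149 in control lungs (change −1.07), Fmo1, a flavin monooxygenase, 596 and 643 in moribund and 1874 and 1651 in control lungs (change −1.48, adjusted p = 3.98e-07), and the paraoxonase Pon1 429 and 256 in moribund and 1187 and 1003 in control lungs (change −1.67). Among the genes that rose, Reg3g, an antibacterial lectin, had 1252 and 972 in moribund and 307 and 403 in control lungs (change 1.61), and Clca3a1 229.8 and 307 in moribund and 57.4 and 45.9 in control lungs (change 2.06). Scgb1a1 was not called (change −0.12, adjusted p = 0.293), with 0.03 when arrays were scaled to 1 median. Tppp3, a tubulin-binding protein of ciliated cells, had 612 and 563 in moribund and 1635 and 1766 in control lungs (change −1.51, adjusted p = 6.40e-07). Without the female control array 1 ciliated gene, Tppp3, was called, and 3 were without the male control or the female moribund array, and the sums over the 14 genes were 5132 and 5362 in moribund and 6868 and 7370 in control lungs.

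Many endothelial genes fell. Of 45 tested 25 fell and 1 rose, with a median change of −0.614, and 13 fell without the male control array and 11 without the female moribund array. Their summed signal was 28324 and 26199 on moribund and 40871 and 39222 on control arrays, and no member was at 0. Tmem100, a membrane protein that BMP9 signals induce, had 379 and 259 in moribund lungs, against 1062 and 869 in control lungs (change −1.57, adjusted p = 2.61e-05). Car4, the carbonic anhydrase of alveolar capillaries, had 309 and 229 in moribund and 772 and 695 in control lungs (change −1.41), and Hpgd, which inactivates prostaglandins, 927 and 716 in moribund and 2002 and 1792 in control lungs (change −1.20). Aplnr, the apelin receptor of capillaries, had 322 and 196 in moribund and 1016 and 1139 in control lungs (change −2.03, adjusted p = 1.28e-04). The receptors of vessel growth also lay lower: Tek, the angiopoietin receptor, had 572 and 459 in moribund and 997 and 939 in control lungs (change −0.90), and Kdr, the main receptor of VEGF, 449 and 279.6 in moribund and 823 and 953 in control lungs (change −1.28), a call lost without the female moribund array (−0.92). Cdh5, the cadherin of endothelial junctions, had 866 and 567 in moribund and 1246 and 1195 in control lungs and was not called (change −0.79, adjusted p = 0.0568), though it was with the deposited scaling (−1.08) and without the male moribund array (−1.19). The exception was Selp, the P-selectin that recruits leukocytes, with 190.2 and 223 in moribund and 71.5 and 54.5 in control lungs (change 1.5, adjusted p = 0.00152).

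Genes of other tissues that a dissected lung may hold moved too. Of 36 genes of heart and skeletal muscle 17 fell and none rose (median change −0.736), with 11 fallen without the female control array, and their summed signal was 6524 and 6886 in moribund and 11668 and 12341 in control lungs, with no member at 0. Myl7, the atrial myosin light chain of the heart and of the muscle sleeve around mouse pulmonary veins, had 221 and 279 in moribund lungs, against 1054 and 925 in control lungs (change −1.92, adjusted p = 8.03e-06), the atrial light chain Myl4 223 and 248.5 in moribund and 734 and 722 in control lungs (change −1.56), and the cardiac myosin heavy chain Myh6 96.9 and 176 in moribund and 426 and 417 in control lungs (change −1.57). Ttn, titin, and the troponin Tnni3 changed by −1.98 and −1.56. Of 12 red cell genes 6 fell and none rose, with 2 fallen without the male control and 3 without the female moribund array. Their summed signal was 2933 and 3120 in moribund and 5748 and 5328 in control lungs. Alas2, the haem synthesis enzyme of erythroid cells, had 579 and 881 in moribund and 1706 and 1974 in control lungs (change −1.34), a call lost without the male moribund (−0.99), the male control (−1.48) or the female control array (−1.21). Ppbp, a chemokine that platelets store, had 313 and 85.1 in moribund and 1225 and 713 in control lungs (change −2.38, adjusted p = 9.81e-05). Of 20 genes of adipocytes and lipogenesis 5 fell and 1 rose, with 2 fallen without the female control array. Car3, a carbonic anhydrase of fat and muscle, had 547 and 267 in moribund and 1032 and 1499.6 in control lungs (change −1.66), and Thrsp, a regulator of fat synthesis, 47.6 and 45.0 in moribund and 176 and 254 in control lungs (change −1.87, with a second probe set at −0.37). How far muscle, fat or blood in the samples bears on the other changes was not tested.

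Among signalling and transport genes, 8 of 30 genes of water, ion and acid transport fell and 3 rose, but 3 fell and none rose without the female moribund array. Car8, a carbonic anhydrase-related protein without enzyme activity, had 421 and 202 in moribund and 888 and 744 in control lungs (change −1.42), and Fxyd1, a regulator of the sodium pump, 418 and 311 in moribund and 779.9 and 777 in control lungs (change −1.08). Of 32 immediate early genes 6 rose and 3 fell, with 3 risen and none fallen without the female moribund array and 9 risen and none fallen without the male control array. Myc had 110.5 and 182 in moribund lungs, against 26.0 and 30.5 in control lungs (change 1.84), Ccn2, the connective tissue growth factor, 2503 and 2424 in moribund and 1144 and 829 in control lungs (change 1.32), and Egr2 141 and 180.4 in moribund and 45.8 and 45.0 in control lungs (change 1.52). Of 11 IGF genes 2 rose and 3 fell, but none rose without the male moribund or the male control array or with the deposited scaling, and 1 rose and 1 fell without the female control array. Igfbp6, a binding protein that prefers IGF2, had 428 and 386 in moribund and 1196 and 1465 in control lungs (change −1.67), while Igf1 had 546 and 479 in moribund and 166 and 223 in control lungs (change 1.34), a call lost with the deposited scaling and without the male moribund (1.09) or the male control array (1.26).

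Several housekeeping lists hardly moved. Of 65 genes of the mitochondrial respiratory chain 1 rose and none fell, of 41 cytosolic ribosomal proteins none rose and 2 fell, and of 40 genes of the unfolded protein response and chaperones 2 rose and none fell. Their shares of called genes, 1.54%, 4.88% and 5%, lay below the 15.3% of all genes tested. Of 25 genes of fatty acid oxidation 5 fell and none rose, with 2 fallen without the male moribund or the female control array. Among them was Hadh, a mitochondrial dehydrogenase, with 1212 and 1237 in moribund and 1915 and 2045 in control lungs (change −0.69).

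**Figure D3:**
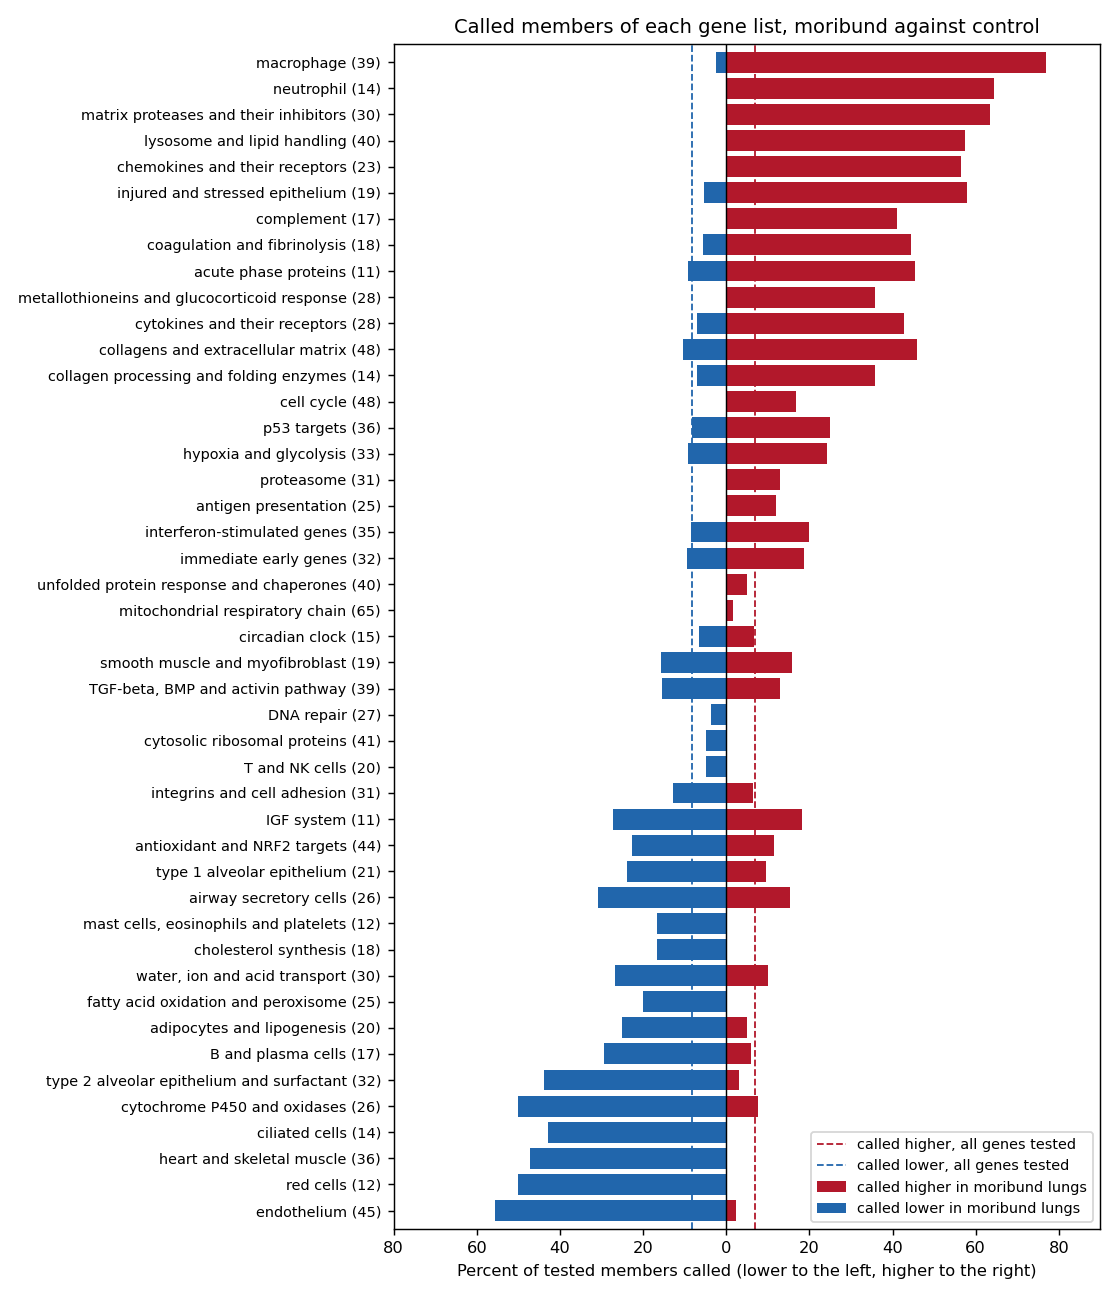
Percent of the tested members of each of the 45 lists (rows, with the number tested in brackets) called higher (red, to the right) or lower (blue, to the left) in moribund than in control lungs, ordered by the difference of both. Dashed lines mark the 6.96% and 8.3% of all 9079 genes called higher and lower; macrophage genes stand first and endothelial genes last in this order, which for the falls depends on the scaling and on single arrays.

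All 1386 called genes changed in the same direction in the male and in the female pools, a comparison of 1 array with 1 in each sex and so without a test. The change was larger between the female pools for 936 of them and between the male pools for 450, and the median size of a change was 0.904 in female and 0.716 in male pools. Over all genes tested that median was 0.336 in female and 0.255 in male pools. The female pools had received the higher dose and their moribund array was the dimmest, so sex, dose and array cannot be told apart here. For 87 called genes the sexes differed by more than 1 on the log2 scale. Mmp12 had the largest male excess named here, and Slc39a14 and Ccl2 are examples of a female excess.

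**Figure D4:**
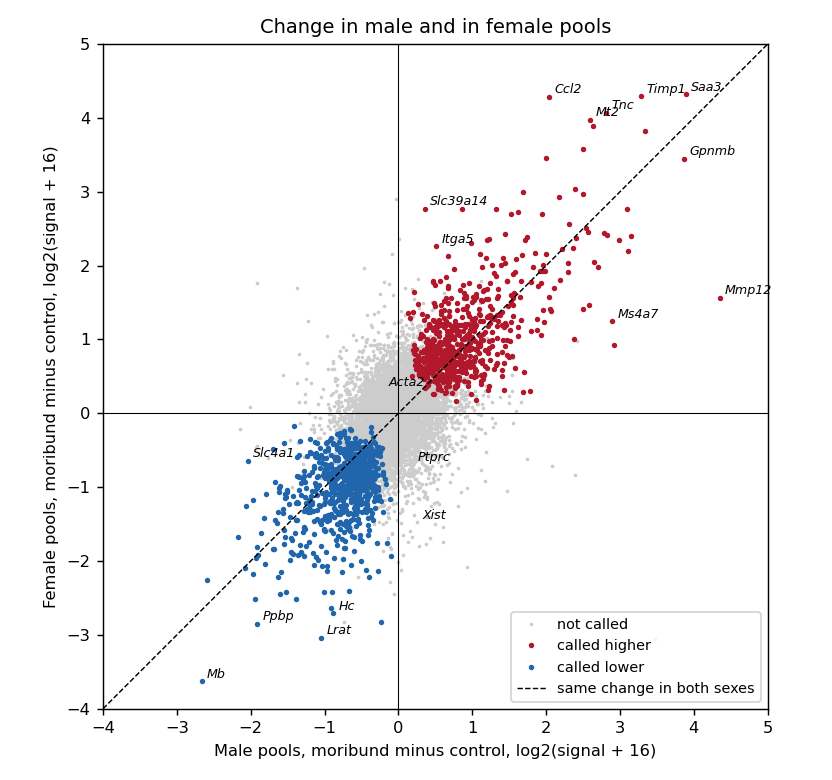
Change between the female pools (vertical axis) against change between the male pools (horizontal axis), moribund minus control, log2 of signal plus 16, for the genes tested. Red and blue points are the 632 genes called higher and the 754 called lower. All have the same sign on both axes, which a call on the mean of both changes favours. Risen genes above the dashed line, such as Ccl2, and fallen genes below it, such as Lrat, changed more in females.

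Set directly against C57BL/6 lungs at 3 weeks (1 male pool at 100 and 1 female pool at 125 mg/kg), moribund lungs differed in no gene by limma at an adjusted p under 0.05 (0% of 9079), and 887 genes had an unadjusted p under 0.05. Other settings called between 0 and 10 genes, and 1 to 52 with 1 of these 4 arrays left out, namely 52 without the male moribund array, 6 without the female moribund array and 1 without either array at 3 weeks. The same procedure recovered 77.5% of simulated 2-fold changes and 97.5% of simulated 4-fold changes between these groups. The simulation changed 200 of the 9079 genes, a number chosen beforehand. It gave each gene the same normal spread on every array, as the fit assumes. It therefore cannot tell how many real differences were missed. In 38 genes the group means differed by more than 2-fold. The smallest adjusted p was 0.0542, shared by 5 genes. Myo1f, a myosin of myeloid cells, had 29.7 and 19.9 in moribund lungs, against 107 and 126 at 3 weeks (moribund minus 3 weeks −1.71, SE 0.28), with 20.05 and 28.2 in control lungs. Mcm2, a subunit of the replicative helicase, had 106 and 76.1 in moribund lungs, against 244 and 455 at 3 weeks (−1.72, SE 0.31), with 112 and 105 in control lungs. Lst1, a leukocyte transcript, had 108 and 53.3 in moribund lungs, against 199 and 284 at 3 weeks (−1.45, SE 0.26), with 104 and 121 in control lungs. For these 3 genes the moribund values lay near the controls and the values at 3 weeks above both. Zmat5, a protein of the minor spliceosome, had 26.2 and 20.7 in moribund lungs, against 89.7 and 99.4 at 3 weeks (−1.49, SE 0.25) and 92.7 and 123 in control lungs. Numbl, an adaptor protein related to Numb, had 189 and 214 in moribund lungs, against 87.5 and 74.1 at 3 weeks (1.17, SE 0.20) and 128 and 130.2 in control lungs.

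The changes from control of both stages share the same control arrays, so their likeness is no finding, and the values are given side by side. Gpnmb differed from controls by 3.65 in moribund lungs and by 3.58 at 3 weeks, Timp1 by 3.79 in moribund lungs and by 3.36 at 3 weeks, and Col1a1 by 1.61 in moribund lungs and by 1.28 at 3 weeks. Cxcl10 had 132 and 109.5 in moribund lungs, against 262 and 251 at 3 weeks (moribund minus 3 weeks −0.999, adjusted p = 0.368). Gzma had 73.4 and 58.9 in moribund lungs, against 121 and 326 at 3 weeks (−1.40, adjusted p = 0.242), and Aplnr 322 and 196 in moribund lungs, against 340.0 and 875 at 3 weeks (−1.07, adjusted p = 0.264). In both genes the pools at 3 weeks lay far apart, the male one lower. The median of moribund minus 3 weeks was −0.54 over the interferon-stimulated genes and −0.313 over the cell cycle genes, against −0.0162 over all genes tested. Differences over lists were not tested.

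**Figure D5:**
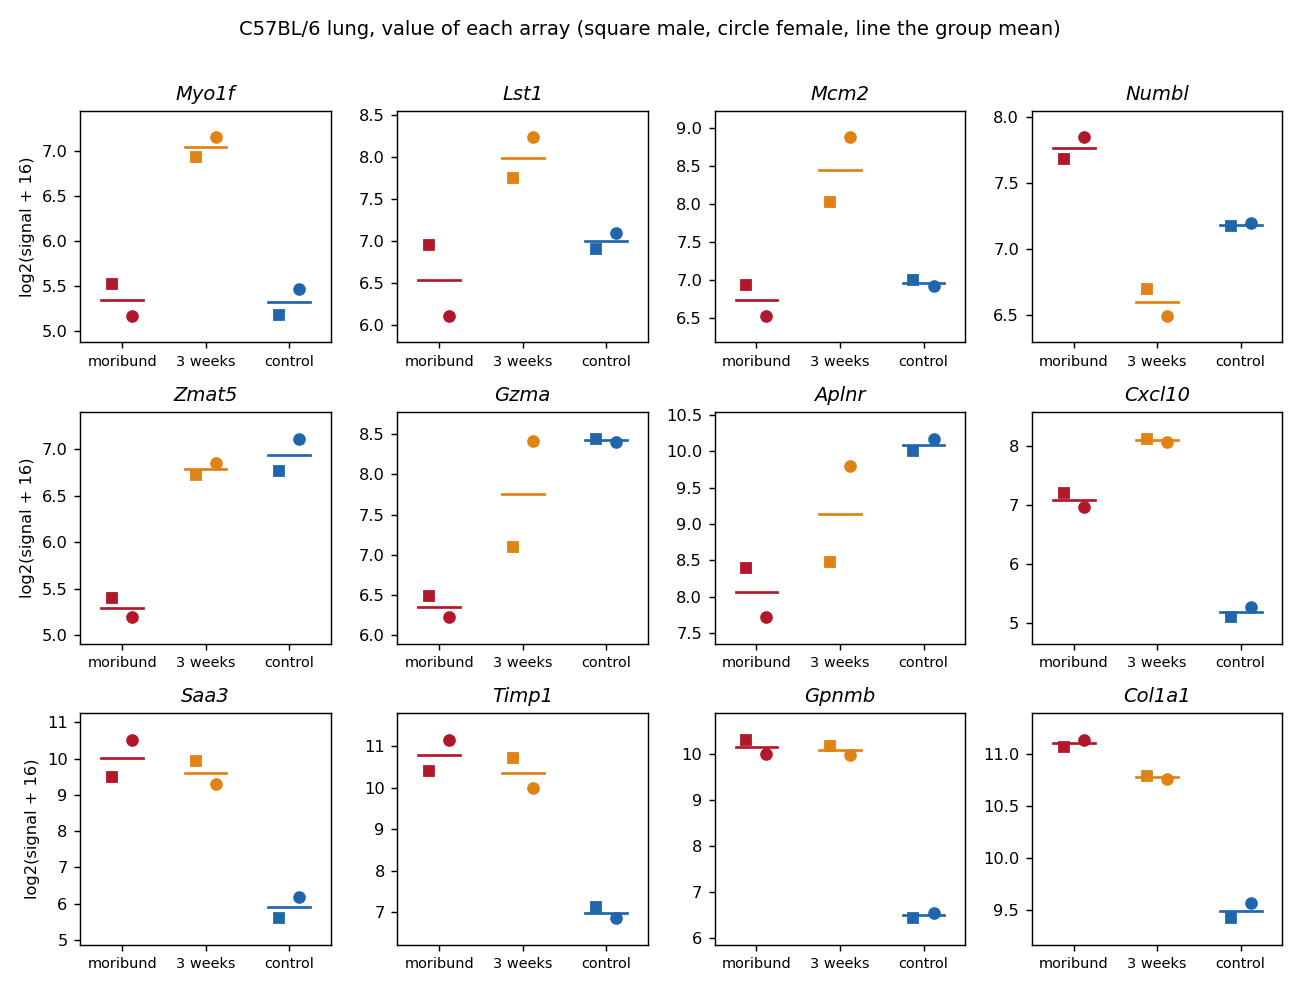
Level of 12 genes (vertical axis, log2 of signal plus 16; each panel has its own range) in C57BL/6 moribund lungs, lungs at 3 weeks and control lungs, with squares for male and circles for female pools and a line at the group mean. Myo1f, Lst1 and Mcm2 are high at 3 weeks only, Zmat5 is low in moribund lungs only, and Saa3, Timp1, Gpnmb and Col1a1 are high in moribund lungs and at 3 weeks.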

How the data were processed

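Total RNA of whole right lungs, pooled over 3 to 5 mice, was measured on single-colour Affymetrix expression arrays, 1 array for each pool. The deposited values are probe set intensities in linear array units, per the labels from the authors, with no statement of their scaling in the sources used here, and their median differs between arrays. All 21 arrays were quantile normalised and log2(intensity + 16) was taken. Of 22690 probe sets, 64 control probe sets and the dimmest 33.3% by their mean signal were not used. Probe sets with 1 gene symbol were kept, with the brightest standing for its gene, which left 9079 genes. limma 3.58.1 (R 4.3.3) fitted 10 groups of strain and stage and a sex term, with eBayes and an intensity trend, on 10 residual degrees of freedom, and p-values were adjusted over all genes by the Benjamini-Hochberg method. On simulated data for moribund against control the procedure recovered 78.5% of 2-fold and 97% of 4-fold changes. These data had 200 changed genes and the equal normal spread in all groups that the fit assumes. With 2 pools a group the number of arrays limits the precision.

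Named genes were the 12 largest rises and 12 largest falls among called genes, up to 3 called genes of smallest p in each of 45 lists, the 5 genes of smallest p against 3 weeks and 22 fixed genes where tested, and 81 more were added after their values were seen. The groups, lists and tests were chosen with earlier results of these data known. Promoter windows came from RefSeq and matched 178 of the 230 named genes. Alternatives were the scaling, the offset, the filter, the model, the choice of probe sets and leaving out arrays. A further 2 were added after seeing the data: leaving out the 2 male arrays with the most Xist, and array brightness as a covariate.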

Additional observations from a re-analysis of the deposited data

Results flagged for a closer look

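In 4 genes of the fixed list the change between the male pools ran opposite to that between the female pools. Each change sets 1 moribund array against 1 control array, so the difference between the sexes was not tested. Acta2, the smooth muscle actin, changed by −0.211 in male and by 0.323 in female pools, and Sftpc, the surfactant protein, by 0.0413 in male and by −0.281 in female pools. Ptprc, the leukocyte antigen CD45, changed by 0.181 in male and by −0.691 in female pools. Xist changed by 0.258 in male and by −1.48 in female pools. In moribund and control lungs of males Xist was low, and the female moribund array had more Uty than the female control array, whose part in the other 3 differences was not tested. None of the 4 genes was called over both sexes.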

How the results depend on the processing

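Of 19 alternatives to the processing of the comparison with control, applied to the 214 called genes named where tested, none reversed a change. These genes had passed the call on the same arrays, so a reversal was unlikely beforehand. The count of 1386 called genes was 701 with the deposited scaling, 528 with only the C57BL/6 arrays fitted and 543 with only the 4 arrays compared, and between 670 and 1547 with 1 of the 4 arrays left out, lowest without the female control array. The other settings gave between 937 (array weights) and 1953 (adjusted p under 0.10). Against 3 weeks, where no gene was called, 2 were called with the deposited scaling and 2 with an offset of 1. The count was 3 without the C3H/HeJ female 6 week array, 3 with the mean of a gene's probe sets, 3 without the 2 male arrays of highest Xist, 3 with array brightness as a covariate and 10 at an adjusted p under 0.10, and between 1 and 52 with 1 array left out. The cause of these changes was not tested.

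Among the named genes, direction changed only in genes that were not called. Acta2 changed by −0.185 with the deposited scaling, and Scgb1a1 by 0.0303 with arrays scaled to 1 median. With 1 array left out Acta2 ran between −0.291 and 0.402, Ptprc between −0.846 and 0.336, Xist between −1.48 and 0.26, and Blmh between −0.173 and 0.0715. No paired analysis was possible because, as far as the labels say, no mouse or pool stands behind more than 1 array. In the 4 arrays the replicate numbers mark sex, which the fit holds as a term. In the moribund group they also mark dose, for which the fit has no term. The A/J arrays at 3 weeks, with doses of 80 to 125 mg/kg, were fitted as 1 group. The 1427 calls without the sex term were close to the 1386 with it. Low signals limit the folds of genes near the offset, such as Trem2, and signals at the top of the scale those of Sftpc and Scgb1a1. With 2 pools a group, a gene without a call cannot be taken as unchanged.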

Other observations

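Some gene groups not described above held a few called genes. Between 12.9% and 19.4% of the tested members of each list in this paragraph were called, near the 15.3% of all genes tested. Of 31 proteasome genes 4 rose and none fell, with a median change of 0.282 in moribund against control lungs, and 11 rose without the male moribund array but 1 without any other of the 4 arrays. Of 18 genes of cholesterol synthesis 3 fell and none rose, with none called without the female control array and 1 without the female moribund array. Of 31 genes of integrins and cell adhesion 2 rose and 4 fell, but none fell without the female moribund array, 1 fell without either control array, 6 fell without the male moribund array and none rose without the female control array. Of 15 genes of the circadian clock 1 rose and 1 fell, with 5 fallen without the female control array and none called without the female moribund array. Lrat, which esterifies retinol in lipid-storing cells, fell by 1.05 between the male pools and by 3.04 between the female pools, and Itga5, a chain of the fibronectin receptor, rose by 0.51 in male and by 2.26 in female pools, both as differences of 1 array from 1 and so without a test. The call of Itga5 over both sexes was lost without the female moribund array (0.79) or the female control array (1.0). Of 12 genes of mast cells, eosinophils and platelets 2 fell and none rose, with summed signals of 2215 and 1936 in moribund and 3985 and 2948 in control lungs.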
